A study of Homo sapiens with 8 samples.

Results

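Sites of the tumour suppressor p53 that were listed in U2OS cells given Nutlin-3 and in cells given its solvent DMSO, but neither after doxorubicin nor without treatment, are described here. The peaks of the 4 deposited lists were merged where they overlapped or adjoined, and a region was kept when it held at least 1 Nutlin-3 peak and at least 1 DMSO peak and no peak of the other lists. Of 19877 merged regions, 775 met this rule. They held 785 of the 18159 Nutlin-3 peaks (4.32%, exact 95% binomial interval 4.03 to 4.63) and 775 of the 2793 DMSO peaks (27.7%, 26.1 to 29.4). All intervals given for shares are of this kind, cover counting error only and treat regions as independent.

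U2OS is a human osteosarcoma line, and the labels state that its own p53 is wild-type. The ChIP libraries came from cells given 10 µM Nutlin-3, 0.6 µg/ml doxorubicin, 0.1% DMSO or no treatment, with 24 h named for each. DMSO is named as the control of Nutlin-3, and no treatment as the control of doxorubicin. Each condition had 1 ChIP library, made with the p53 antibody DO-1, so nothing here has a replicate, no test between conditions was made, and the read depth behind each list is unknown.

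p53 is a transcription factor that binds DNA as a tetramer, at sites made of paired repeats, near genes of cell cycle arrest, apoptosis, DNA repair and metabolism. In unstressed cells the ubiquitin ligase MDM2 keeps its level low by marking it for degradation. Nutlin-3 occupies the p53 pocket of MDM2 and so stabilises p53 without breaking DNA, whereas doxorubicin poisons topoisomerase II, and the DNA breaks activate p53 through damage kinases. Peaks of the DMSO list are places where p53 was called in cells given neither drug. The lists held positions in hg18 and no gene names, and no hg18 annotation or sequence was used, so the sites are named by position and are not tied to genes or to p53 motifs. Other regions were used only as a background: the 1400 that held Nutlin-3, DMSO and doxorubicin peaks, the 15116 with Nutlin-3 peaks alone and the 583 with DMSO peaks alone.

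At the typical site of this class the Nutlin-3 list showed no gain in width over the DMSO list. Nutlin-3 peaks covered 40 to 620 bp of a region with a median of 60 bp, and DMSO peaks covered 40 to 700 bp, also with a median of 60 bp. Summed over all 775 regions, Nutlin-3 covered 76.8 kb and DMSO 76.7 kb. The difference, Nutlin-3 minus DMSO, had a median of 0 bp and a mean of 0.10 ± 109 bp (SD over the 775 regions, which is not a replicate error). The quartiles of the difference were -40 and 40 bp, and the extremes -460 and 440 bp.

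Behind the median of 0 bp stood regions that gained and regions that lost width in similar numbers. Nutlin-3 covered more in 271 regions (35.0%, 31.6 to 38.4), against 29.1% of all 2182 regions that held a Nutlin-3 and a DMSO peak. DMSO covered more in 315 regions (40.6%, 37.2 to 44.2), against 35.5% of the 2182. Covered lengths were equal in 189 regions (24.4%, 21.4 to 27.6), against 35.4% of the 2182. At least 2 times the DMSO length was reached by Nutlin-3 in 158 regions (20.4%, 17.6 to 23.4), with 16.3% as the background, and at least 2 times the Nutlin-3 length was reached by DMSO in 173 (22.3%, 19.4 to 25.4), with 18.4% as the background. Each of these classes took a larger share of the 775 regions than of the 2182, which include them, and equal lengths took a smaller one. Which list covered more in more regions depended on the setting. The share for Nutlin-3 minus the share for DMSO was -5.68 percentage points here, 11.95 points when peaks up to 500 bp apart were merged, 2.71 points without peaks of 40 bp in any list and 12.9 points in the widest 50% of each list. In the 1400 regions that also held a doxorubicin peak, 41.5% (38.9 to 44.1) had equal lengths, Nutlin-3 covered more in 25.7% (23.4 to 28.1) and DMSO in 32.8% (30.3 to 35.3).

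**Figure D1:**
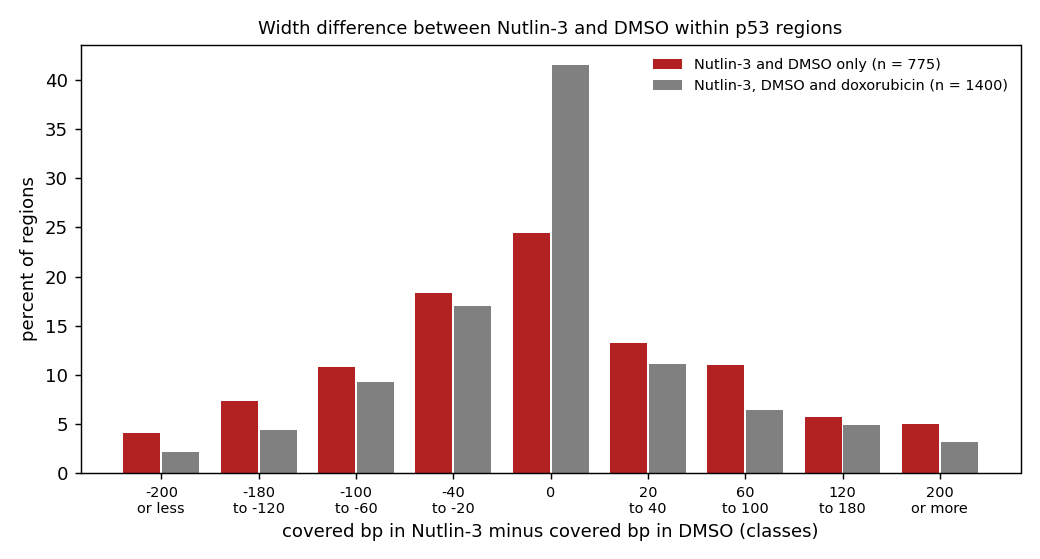
Percent of regions (y axis) by covered length in Nutlin-3 minus covered length in DMSO in bp (x axis, classes), for the 775 Nutlin-3 and DMSO only regions (red) and the 1400 regions that also held a doxorubicin peak (grey). The distribution is centred on 0 in both, with 24.4% of the 775 and 41.5% of the 1400 at 0, and 5.03% of the 775 at 200 bp or more against 4.13% at -200 bp or less.

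Width in the pair of lists was only loosely related from site to site. Spearman's rho between the Nutlin-3 and the DMSO length was 0.17 over the 775 regions and 0.24 over the 1400 with doxorubicin, as a description of regions that share the same libraries. The most frequent pairing was 40 bp, the smallest width in any list, in both, with 148 regions. Nutlin-3 lengths of 300 bp or more (36 regions) went with a median DMSO length of 60 bp, and in 20 of them the DMSO length was 40 or 60 bp. DMSO lengths of 300 bp or more (31 regions) went with a median Nutlin-3 length of 160 bp, and in 10 of them the Nutlin-3 length was 40 or 60 bp. Both lists reached 300 bp in 5 regions. Grouped by the Nutlin-3 length, the median difference was -20 bp at 40 bp, 0 bp at 60 bp and 280 bp at 300 bp or more. Grouped by the DMSO length, it was 0 bp at 40 and 60 bp, -60 bp at 120 to 140 bp and -240 bp at 300 bp or more. The width that made each group is itself part of the difference, so the groupings run in opposite directions by construction.

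**Figure D2:**
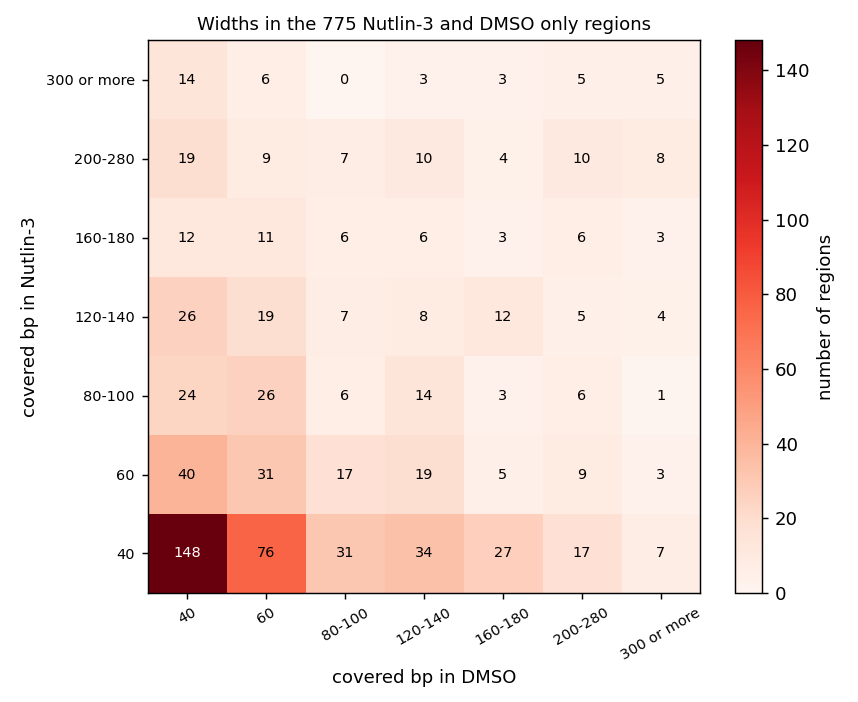
Number of regions (colour and printed count) by covered length in DMSO (x axis, bp) and in Nutlin-3 (y axis, bp) for the 775 Nutlin-3 and DMSO only regions. The counts concentrate at 40 bp in both lists (148 regions), and 5 regions had 300 bp or more in both.

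The widest Nutlin-3 peak among these sites lay on chromosome 6 from 36753651 to 36754271 (620 bp). The DMSO peak inside it ran from 36753691 to 36753871 (180 bp), and its difference of 440 bp was the largest of all. The next differences were 420 bp on chromosome 1 from 30233291 to 30233751, where the DMSO peak was 40 bp wide, and 400 bp on chromosome 5 from 76042651 to 76043091, where it was 40 bp wide as well. Over the 10 regions with the largest differences, Nutlin-3 covered 400 to 620 bp and DMSO 40 to 180 bp. In 9 of the 10 the DMSO peak lay inside the Nutlin-3 peak.

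At the other end, the widest DMSO peak of the class, on chromosome 15 from 61235351 to 61236051 (700 bp), met a Nutlin-3 peak of 240 bp from 61235891 to 61236131. This gave the lowest difference, -460 bp. The next was -420 bp on chromosome 5, where a Nutlin-3 peak of 40 bp from 167309891 to 167309931 lay inside a DMSO peak of 460 bp from 167309691 to 167310151. On chromosome 8 from 29686451 to 29687211 both lists had wide peaks, 600 bp in Nutlin-3 and 560 bp in DMSO, of which 400 bp were shared. On chromosome 19 from 51328851 to 51329371 the Nutlin-3 peak of 520 bp enclosed a DMSO peak of 480 bp. In the 10 regions with several Nutlin-3 peaks, these sat beside 1 DMSO peak. Such was the region on chromosome 4 from 40842051 to 40842691, with 220 bp in Nutlin-3 peaks and a DMSO peak of 600 bp, and that on chromosome 20 from 56025951 to 56026511, with 260 bp in Nutlin-3 peaks inside a DMSO peak of 560 bp.

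Nutlin-3 and DMSO peaks at these sites seldom had the same bounds, and in most regions they were staggered or nested. In 284 regions (36.6%, 33.2 to 40.1) the peaks were staggered, each reaching beyond the other at one end. In the 1400 regions with doxorubicin this share was 33.9% (31.4 to 36.4), an overlapping interval. There a doxorubicin peak can also bridge Nutlin-3 and DMSO peaks that do not touch. The Nutlin-3 peak lay inside the DMSO peak in 187 regions (24.1%, 21.2 to 27.3) and the DMSO peak inside the Nutlin-3 peak in 143 (18.5%, 15.8 to 21.4). In the 1400 these shares were 21.7% (19.6 to 24.0) and 17.1% (15.1 to 19.1), again with overlapping intervals, so staggered or nested peaks were not particular to the class. Identical bounds occurred in 63 regions (8.13%, 6.30 to 10.3), against 271 of the 1400 regions with doxorubicin (19.4%, 17.3 to 21.5). In 88 regions (11.4%, 9.21 to 13.8) the peaks only adjoined, against 92 of the 1400 (6.57%, 5.33 to 7.999), an interval that lay lower.

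Among the 765 regions with 1 peak of each list, the centres lay a median of 30 bp apart (order-statistic interval 20 to 30), against 20 bp in the 1380 such regions with doxorubicin. The centres were within 50 bp in 562 regions (73.5%, 70.2 to 76.6) and over 100 bp apart in 64 (8.37%, 6.50 to 10.6). Of the 1380 regions, 82.6% (80.5 to 84.6) had centres within 50 bp and 5.29% (4.17 to 6.61) over 100 bp apart. The Nutlin-3 centre was at the lower coordinate in 358 regions, at the higher in 312 and at the same place in 95. The Nutlin-3 peak reached beyond the DMSO peak at both ends in 78 of the 765 regions, at 1 end in 437 and at neither end in 250. For the 1380 regions these counts were 75, 730 and 575. Shared length was 40 bp in 330 regions, 20 bp in 169 and more than 40 bp in 178. Starts and ends in the files fall on a grid of 20 bp, so a shift of 20 bp is a single step.

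Sites without a doxorubicin peak were more frequent among wide than among the narrowest sites. Of the 2175 regions that held Nutlin-3 and DMSO peaks and no peak from untreated cells, 35.6% (33.6 to 37.7) had no doxorubicin peak, and these are the 775. By Nutlin-3 length the share was 28.3% (25.8 to 31.0) at 40 bp, 41.5% (35.8 to 47.3) at 60 bp, 51.9% (43.0 to 60.8) at 200 to 280 bp and 36 of 90 regions (29.8 to 50.9%) at 300 bp or more. By DMSO length it was 27.4% (24.7 to 30.2) at 40 bp, 41.0% (36.3 to 45.8) at 60 bp, 41.8% (35.3 to 48.5) at 120 to 140 bp and 48.7% (39.5 to 58.1) at 200 to 280 bp. The share at 40 bp lay below that of each wider class in both groupings, and the intervals overlapped only between Nutlin-3 lengths of 40 bp and of 300 bp or more. Between the wider classes the intervals overlapped throughout, so no order among them could be read. With a reciprocal overlap of at least 50% between the Nutlin-3 and DMSO peaks the share was 22.3% at DMSO lengths of 40 bp and 38.9% at wider ones. The gap was smaller, 31.2% against 37.9%, when peaks up to 500 bp apart were merged. Peaks of 40 bp made up 43.9% of the Nutlin-3 lengths and 36.5% of the DMSO lengths of the 775 regions. In the 1400 regions with doxorubicin they made up 61.5% of the Nutlin-3 and 53.6% of the DMSO lengths, and in the whole lists 34.6% of Nutlin-3 and 47.5% of DMSO peaks. Width is a property of these lists alone, which carry no peak height or read count.

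**Figure D3:**
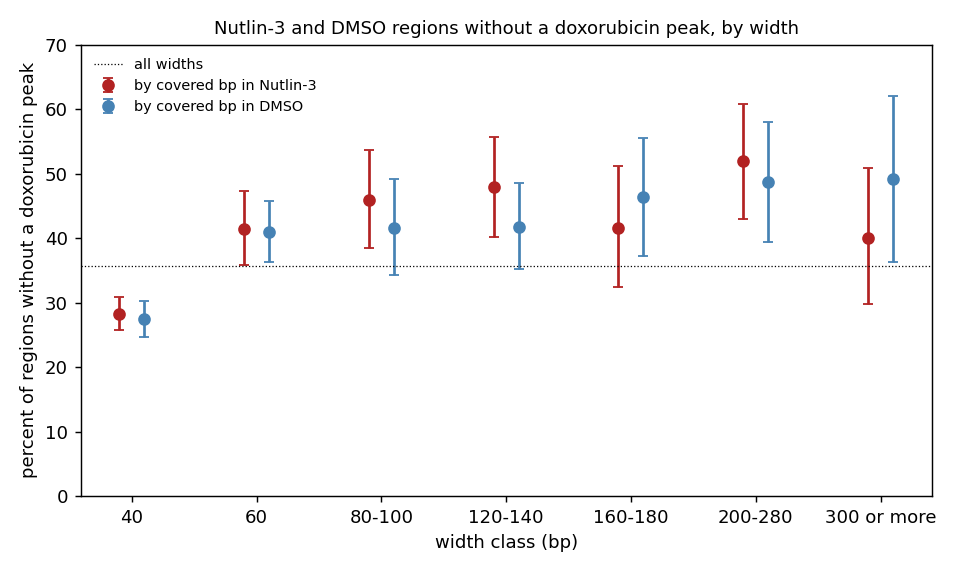
Percent of the 2175 Nutlin-3 and DMSO regions that held no doxorubicin peak (y axis), by covered length (x axis, bp), grouped by the Nutlin-3 length (red) and by the DMSO length (blue). Bars are exact 95% binomial intervals and the dotted line is the share over all widths (35.6%), and the points at 40 bp (28.3% and 27.4%) lie below all others.

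Some sites of the class lay next to a doxorubicin peak without touching it. A doxorubicin peak was found within 1000 bp, edge to edge, of 130 of the 775 regions (16.8%, 14.2 to 19.6), against 8.17% of the 16803 merged regions that held no doxorubicin peak. The share was 19.6% (16.4 to 23.01) for DMSO only regions, an overlapping interval, and 7.29% (6.88 to 7.72) for Nutlin-3 only regions, an interval that lay lower. Of the 1400 regions that held Nutlin-3, DMSO and doxorubicin peaks, 4.57% (3.54 to 5.80) had a further doxorubicin peak within 1000 bp. Their own doxorubicin peak takes up the nearest place, so this share is not on the same footing. For 79 of the 130 regions the nearest doxorubicin peak was 40 bp wide, a width that 43.5% of all doxorubicin peaks had. Some regions shared a neighbour, and the 130 had 122 different ones. The share for the Nutlin-3 and DMSO only class was 5.66% when peaks of 40 bp were left out of all lists and 19.8% when they were left out of the Nutlin-3 and DMSO lists alone. It was 1.16% when peaks up to 500 bp apart were merged, which takes most near neighbours into the regions. Other classes were not recomputed under these settings, so the altered shares cannot be set against those of the other classes. The median distance was 183.8 kb (143 to 215) for the 775 regions, 181.6 kb for DMSO only and 245.9 kb for Nutlin-3 only. For the regions with doxorubicin it was 304.0 kb to a further doxorubicin peak, again not on the same footing.

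**Figure D4:**
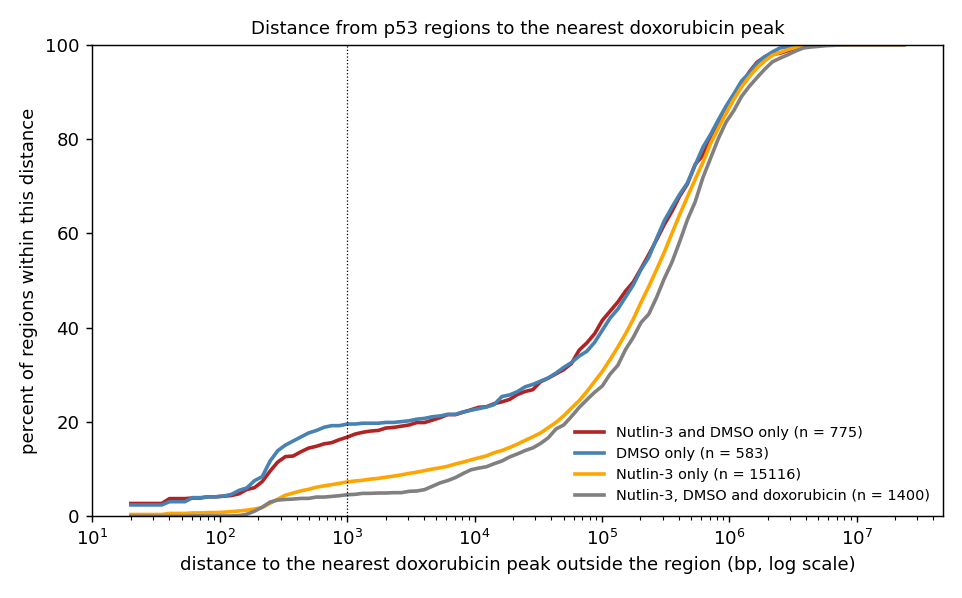
Cumulative percent of regions (y axis) by distance to the nearest doxorubicin peak outside the region (x axis, bp, log scale) for 4 classes of region, with a dotted line at 1000 bp. The curves of Nutlin-3 and DMSO only (red) and DMSO only (blue) regions reach 16.8% and 19.6% within 1000 bp, above Nutlin-3 only (orange, 7.29%). The regions with doxorubicin (grey, 4.57%) are not on the same footing, since their own doxorubicin peak is left out.

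In distance classes of growing width, the regions fell into a near and a far part. Within 100 bp of a doxorubicin peak lay 33 regions, and a further 97 lay within 1000 bp. The next class, up to 10 kb, held 46 regions, that up to 100 kb held 146, that up to 1000 kb held 354, and 99 lay farther away. Of the 57 regions with a doxorubicin peak within 200 bp, 32 had as nearest one a peak that overlapped or adjoined no peak of any other list, and 22 had one that belonged to a region with Nutlin-3, DMSO and doxorubicin peaks. Of the 73 regions with one at more than 200 and up to 1000 bp, 68 had a nearest peak in such a region and 1 had a doxorubicin peak alone. The classes of all doxorubicin peaks, or of those beside other regions, are not given. These counts of nearest peaks thus have no background and cannot be read as high or low. A further Nutlin-3 peak lay within 100 bp of 15 of the 775 regions and within 200 bp of 94 (12.1%). A further DMSO peak lay within 100 bp of 3. Whether spacing within the lists has a part in the contrast between these 57 and 73 regions was not tested. Regions with all 3 lists lay within 1000 bp of 97 of the 775 (12.5%) and within 10 kb of 134 (17.3%). Distances to such regions are not given for other classes, so these shares have no background and cannot be read as high or low. Nutlin-3 covered more than DMSO in 34.6% (26.5 to 43.5) of the 130 regions near a doxorubicin peak and in 35.0% (31.4 to 38.9) of the 645 others, with overlapping intervals. The median length was 60 bp in Nutlin-3 and 60 bp in DMSO, both near a doxorubicin peak and elsewhere. Near sites had mean lengths of 124 bp in Nutlin-3 and 127 bp in DMSO, against 94.1 bp in Nutlin-3 and 93.4 bp in DMSO in the others.

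The rule draws its line at touching peaks, and many regions lay close to it. On the inner side, 88 regions had peaks of Nutlin-3 and DMSO that only adjoined, and 21 had a doxorubicin peak a single grid step of 20 bp away. On the outer side, 57 DMSO only regions had a Nutlin-3 only region 20 bp away, and 53 of the 1400 regions with doxorubicin held doxorubicin peaks that adjoined the other peaks without overlapping them. An example on the inner side is the region on chromosome 1 from 28551571 to 28551611, with identical bounds in Nutlin-3 and DMSO and a doxorubicin peak of 40 bp from 28551511 to 28551551. On chromosome 3 from 37226811 to 37226851 the bounds were again identical, with a doxorubicin peak of 60 bp from 37226731 to 37226791.

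Some sites lay megabases from any doxorubicin peak. The farthest, on chromosome 13 from 58462651 to 58462691, was 40 bp wide with the same bounds in Nutlin-3 and DMSO, and its nearest doxorubicin peak was 4605 kb away. The next were on chromosome 13 from 56758791 to 56758911 (4361 kb) and on chromosome 8 from 14610391 to 14610551 (4333 kb). In these 3 regions the Nutlin-3 peak was 40 bp wide, and the nearest further Nutlin-3 peak was 774100 bp away or more. Others among the 10 farthest had one nearby, such as that on chromosome 14 from 94801711 to 94801891, 3162 kb from a doxorubicin peak and 140 bp from a further Nutlin-3 peak.

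Further Nutlin-3 peaks were common around the sites. A Nutlin-3 peak outside the region lay within 1000 bp of 280 regions (36.1%, 32.7 to 39.6), against 21.2% (20.6 to 21.9) for Nutlin-3 only regions and 47.1% (44.5 to 49.8) for the regions with doxorubicin. A further DMSO peak lay within 1000 bp of 126 regions (16.3%, 13.7 to 19.0), against 16.6% (13.7 to 19.9) for DMSO only regions and 12.4% (10.7 to 14.2) for the regions with doxorubicin, and both of these intervals overlapped that of the 775. Peaks of untreated cells, whose list held 496, were far from regions of each class. They lay within 1000 bp of 4 of the 760 regions on chromosomes that had any (0.526%), against 0.560% of Nutlin-3 only, 0.521% of DMSO only and 0.292% of the regions with doxorubicin. The median distance was 5875 kb for the 760 regions, 5225 kb for Nutlin-3 only, 3954 kb for DMSO only and 6532 kb for the regions with doxorubicin.

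Most of the 775 sites had no other site of the class within 20 kb, although many had other peaks around them. A further Nutlin-3 peak lay within 10 kb of 403 regions (52%, 48.4 to 55.6). This share lay between the 42.5% (41.7 to 43.3) of Nutlin-3 only regions and the 59.7% (57.1 to 62.3) of the regions with doxorubicin. With gaps of at most 20 kb, 81 regions (10.5%) formed 37 runs, of which 31 were pairs, and 694 had no neighbour of the class. Runs are not given for other classes, so the 10.5% has no background. The longest run held 4 regions on chromosome 6 from 36750831 to 36758811. It spanned 7980 bp, in which the lists had 10 Nutlin-3, 9 DMSO, 4 doxorubicin and 0 untreated peaks. Its first region had 40 bp in Nutlin-3 and 60 bp in DMSO. The next was that of the widest Nutlin-3 peak, with 620 bp in Nutlin-3 and 180 bp in DMSO. The region from 36755931 to 36756371 had 440 bp in Nutlin-3 and 240 bp in DMSO, and the last, from 36758591 to 36758811, had 160 bp in Nutlin-3 and 60 bp in DMSO. The doxorubicin peak nearest to each was 1320, 520, 2000 and 160 bp away in the same order, so sites that doxorubicin did list lay between them.

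The sites were spread over the autosomes and chromosome X. On no chromosome did their share depart from that of the Nutlin-3 or the DMSO list beyond its interval. They occurred on 23 chromosomes, with 82 on chromosome 1 (10.6%, 8.50 to 13.0), 73 on chromosome 2 (9.42%, 7.46 to 11.7) and 55 on chromosome 5 (7.10%, 5.39 to 9.14), and 8 on chromosome 21 (1.03%, 0.447 to 2.02). On each of the 23 the interval held the share of the Nutlin-3 list and that of the DMSO list. Chromosomes Y and M had 0 of the 775 regions. The DMSO list had 0 peaks on either, so the rule fixed this count and no bound on the share is drawn from it. The doxorubicin list had 104 peaks on Y and 2 on M. Its shares by chromosome were not set beside the intervals. It had 131 of its 3087 peaks on chromosome 8 and 96 on chromosome 21, where the class had 52 and 8 regions. Among regions with Nutlin-3 and DMSO peaks, the share without doxorubicin ranged from 8 of 32 on chromosome 21 (11.5 to 43.4%) to 44.8% (35.6 to 54.3) of 116 on chromosome 8, and all 23 intervals held the overall 35.6%.

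**Figure D5:**
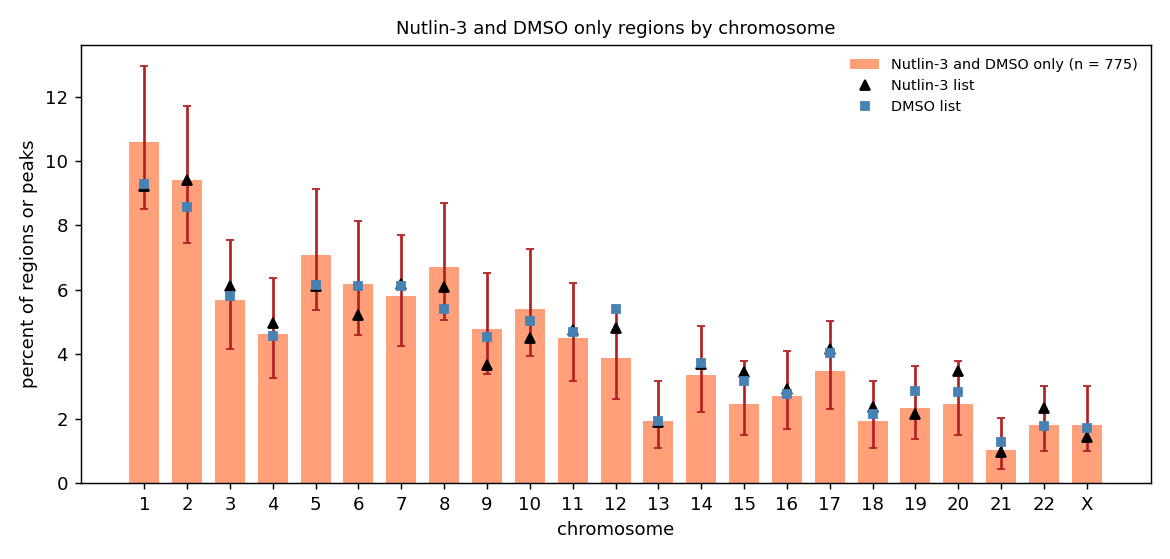
Percent of the 775 Nutlin-3 and DMSO only regions on each chromosome (bars, y axis, with exact 95% binomial intervals) for chromosomes 1 to 22 and X (x axis), beside the percent of all Nutlin-3 peaks (triangles) and of all DMSO peaks (squares). Each of the 23 intervals holds the share of both lists, from 10.6% of the regions on chromosome 1 to 1.03% on chromosome 21.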

How the data were processed

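p53 ChIP-seq peaks of U2OS cells were analysed from 4 deposited lists, 1 per ChIP library, and inputs were not used. Each list gives a chromosome, start and end in bp and no score or count; per the submitters' processing notes the build is hg18 and CASAVA and Bowtie 0.12.2 were used, with nothing on the peak caller, its threshold or how inputs entered. All 24535 starts and widths lay on a 20 bp grid. Ends were taken to lie outside the peak. Peaks were merged with Python 3.11.15, checked against bedtools 2.31.1. Covered length is the summed width of a list's peaks in a region, and distance runs from edge to edge. Shares carry exact Clopper-Pearson 95% intervals, and medians order-statistic intervals (scipy 1.17.1). The code recovered 200 of 200 simulated regions. Named regions were the extremes by width (10 each), width difference (10 highest, 5 lowest) and distance (10 nearest, 10 farthest), and the longest run. The members, classes and rules were chosen with earlier results of these data known. Lists of p53 target genes had no use without an hg18 annotation. Alternatives appear in the closing section.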

Additional observations from a re-analysis of the deposited data

How the results depend on the processing

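Of 64 alternative values of the 7 main results, 38 stayed within 1.5 times (the number of regions and the balance of shares) or within the interval (other shares and medians), 22 moved and 4 changed sign; the cause was not tested unless stated. The number of regions moved to 326 with a reciprocal overlap of at least 50%, 442 without peaks of 40 bp in any list, 298 without them in the Nutlin-3 and DMSO lists only, and 363 in the widest 50% of each list, by construction since peaks or pairs are removed. The share with more covered length in Nutlin-3 was 45.0%, 21.8%, 43.4%, 45.6% and 50.1% with peaks within 500 bp merged, the reciprocal overlap, 40 bp peaks out of all lists, out of those 2 lists, and the widest 50%, and the median difference moved only in the last, to 20 bp. The share with more in Nutlin-3 minus that with more in DMSO was -10.4 points with the reciprocal overlap and turned positive in the other 4 of these settings, at 11.95, 2.71, 5.03 and 12.9 points. The share within 1000 bp of a doxorubicin peak was 1.16% with peaks within 500 bp merged, which absorbs near peaks, 22.2% when an overlap of 1 bp was needed, 5.66% and 19.8% without 40 bp peaks in all or in those 2 lists, and 5.23% in the widest 50%. The median distance was 258.1 kb, 138.0 kb, 217.5 kb, 267.6 kb, 418.8 kb and 491.0 kb with merging within 500 bp, an overlap of 1 bp, the reciprocal overlap, no doxorubicin or untreated peak within 1000 bp, no 40 bp peaks and the widest 50%. The largest chromosome share did not leave its interval (9.73% to 12.7%), on chromosome 1 or 2. The share without doxorubicin at a DMSO length of 40 bp, and at wider lengths, was 27.4% and 43.1%, and 31.2% and 37.9% with merging within 500 bp, and 22.3% and 38.9% with the reciprocal overlap. No paired analysis was possible because each condition had 1 ChIP library, which also left no replicate to leave out. Depth is unknown, so a site not listed after doxorubicin was not called in that list, which does not show absence of binding.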
